A study of Arabidopsis thaliana with 16 samples.

Results

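Distal intergenic peaks are places where a DNA-binding protein was enriched between genes and far from the start of the gene assigned to them. Here they are peaks of 3 transcription factors, WRKY18, WRKY33 and WRKY40, that the authors annotated as intergenic and whose midpoint lay more than 2000 bp from the start of the assigned gene. In the 6 peak lists made after treatment, 1547 of 14393 peaks met this rule, which is 10.7% of all peaks and 49.3% of the 3136 intergenic ones. All 12 lists of the study together held 16600 peaks.

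Binding was measured by chromatin immunoprecipitation with an anti-HA antibody followed by sequencing (ChIP-seq) in 12-day-old Arabidopsis thaliana seedlings of the accession Col-0. The genotypes were Col-0 WRKY18-HA, Col-0 WRKY33-HA and Col-0 WRKY40-HA, each a complementation line carrying the named factor with an HA tag, and untagged Col-0 WT as the control for peak calling. Seedlings were untreated (0 h) or kept for 2 h in medium with 1 µM flg22, and each genotype and time had 2 biological replicates. No untreated 2 h sample is analysed here, so flg22 and the change of medium cannot be told apart. The labels do not say how many transgenic lines per factor were used, which promoter drove the tagged gene, or which background was complemented, and whole seedlings average over all cell types. The 3 lines of 1 time and replicate shared 1 WT library, so their lists are not independent.

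WRKY proteins are plant transcription factors that bind short elements called W-boxes. Flg22 is a peptide from bacterial flagellin that plants perceive at the cell surface, and perception starts a broad defence response in which WRKY genes are induced. WRKY18 and WRKY40 are close relatives that dampen parts of this response, whereas WRKY33 is needed for camalexin synthesis and resistance to necrotrophic fungi. In the compact Arabidopsis genome most known regulatory elements lie close to gene starts, so a gene is usually assigned to the nearest start, and a distal peak may lie between genes that are both candidates.

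After treatment, the WRKY18-HA lists held 202 and 352 distal peaks, the WRKY33-HA lists 147 and 257, and the WRKY40-HA lists 213 and 376. In untreated seedlings, the WRKY18-HA lists held 26 and 221, the WRKY33-HA lists 0 and 5, and the WRKY40-HA lists 9 and 3. In WRKY33-HA and WRKY40-HA every 2 h list held more distal peaks than any 0 h list of that line, while in WRKY18-HA the second 0 h list (221) exceeded the first 2 h list (202). Averaged over the lines on the log2(peaks + 1) scale, the number rose by 4.53 from 0 h to 2 h, or 23.1-fold (exact permutation within lines, two-sided, p = 0.0185, with 0.00926 the smallest p possible). Peaks of all kinds rose 32.0-fold on the same scale, so the lists as a whole lengthened and the rise was not particular to distal peaks.

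The rise was 3.46-fold in WRKY18-HA, 79.8-fold in WRKY33-HA and 44.9-fold in WRKY40-HA. For peaks of all kinds it was 3.35-fold, 98.8-fold and 99.1-fold. The second WRKY18-HA library at 0 h stood apart, with 1843 peaks of all kinds against 260 in the first. Without it the mean rise was 32.9-fold and the rise in WRKY18-HA 9.91-fold, the first with an exact permutation p of 0.00926. Of the 9 distal peaks in the first WRKY40-HA list at 0 h, 8 lay on organelle chromosomes, and all 1547 peaks at 2 h were nuclear. With chromosomes 1 to 5 alone, the rise of distal peaks was 100.4-fold in WRKY40-HA and 30.3-fold as a mean of the lines.

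**Figure D1:**
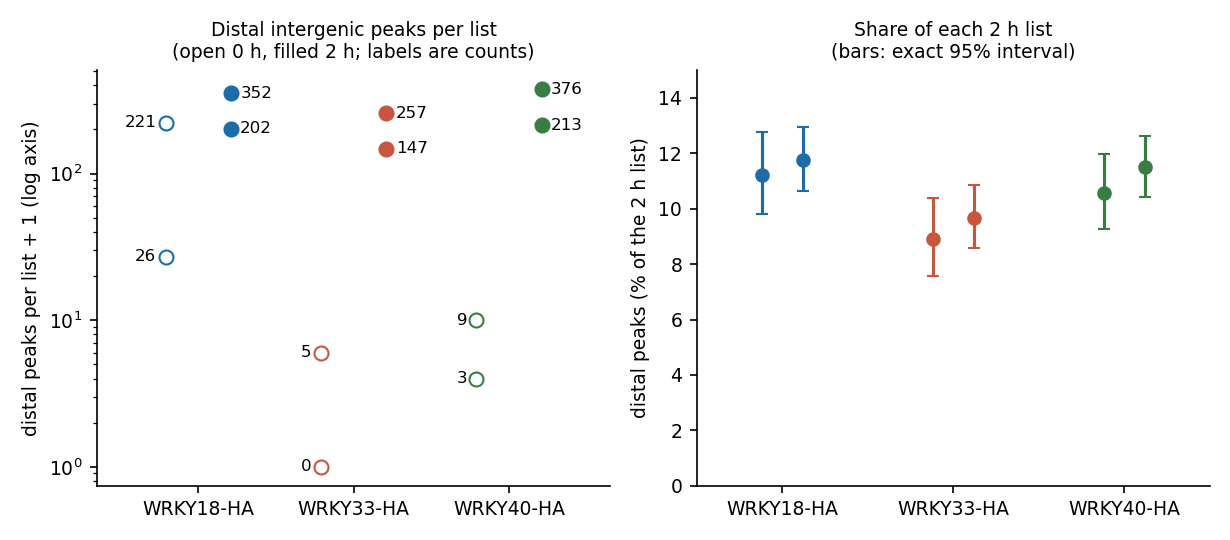
Left, number of distal intergenic peaks plus 1 in each of the 12 lists on a log axis, with open circles for 0 h, filled circles for 2 h and the counts as labels; the WRKY33-HA and WRKY40-HA lists lie at 0 to 9 peaks at 0 h and at 147 to 376 at 2 h. Right, distal peaks as a percent of each 2 h list with exact 95% intervals, replicate 1 on the left of each pair.

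As a share of the list, distal peaks made up 11.2% and 11.8% in WRKY18-HA, 8.89% and 9.68% in WRKY33-HA, and 10.6% and 11.5% in WRKY40-HA. The line means were 11.5% ± 0.38 (SD, n = 2), 9.28% ± 0.55 and 11.0% ± 0.66. Both WRKY33-HA lists lay below all 4 lists of the other lines. The difference between lines did not pass the test, with 1.74 percentage points between WRKY40-HA and WRKY33-HA (exact permutation test of the spread between lines, p = 0.133), but the smallest p possible with 6 lists is 0.0667.

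Most distal peaks lay upstream of the gene they were assigned to: 1132 peaks (73.2%) were upstream and 415 (26.8%) downstream. The rule itself favours this side, since peaks inside the assigned gene lie downstream of its start and are not intergenic. How much intergenic space lies on each side was not measured, so these shares do not show a preference of binding. Counted from the gene start, the middle distance was 2866 bp, and the middle 50% of peaks lay between 2364.5 and 3663.5 bp. In all, 869 peaks (56.2%) were within 3000 bp, and 137 (8.86%) lay beyond 5000 bp. The farthest was 9547 bp upstream and the farthest downstream 8409 bp. The number of peaks fell with distance beyond the limit.

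The peaks were spread over the chromosomes, with 441 on chromosome 1, 244 on 2, 261 on 3, 257 on 4 and 344 on 5. The assigned gene was protein-coding for 1494 peaks, a pseudogene for 31, a non-coding RNA gene for 17 and a tRNA gene for 5. The authors' distance is that of the peak midpoint. For 1476 peaks the gene start could be traced from the lists, and 50 of these (3.39%) had their maximum within 2000 bp of that start.

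**Figure D2:**
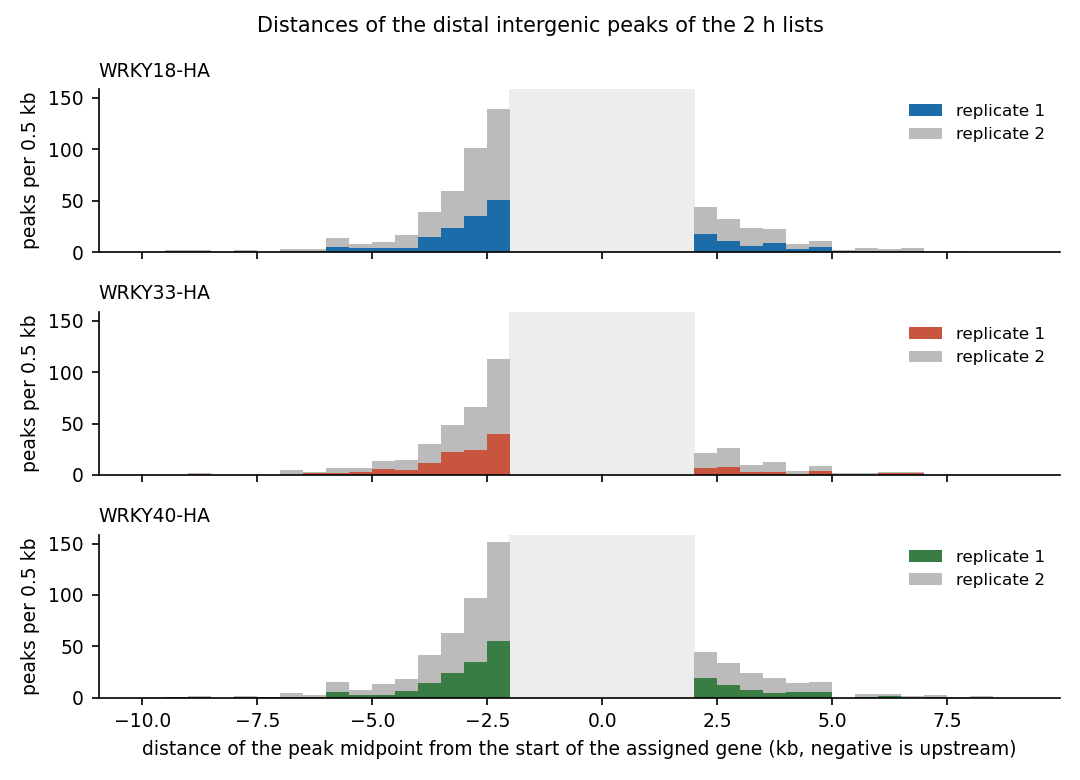
Histogram of the signed distance in kb from the assigned gene's start to the peak midpoint for the 1547 distal peaks of the 2 h lists, in bins of 0.5 kb, stacked by replicate for each line; the grey band is the range within 2 kb that the rule leaves out. In each line the bars fall with distance and are higher upstream than downstream, where the rule also leaves out peaks inside the assigned gene.

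At the limit itself, the peaks nearest to it on the inside were a WRKY40-HA peak 2002 bp upstream of AT1G62290, a WRKY40-HA peak 2002 bp upstream of SMAP1, and a WRKY18-HA peak 2004 bp upstream of WRKY71. Their scores were 32.4, 71.3 and 33.8. Nearest outside were a WRKY18-HA peak 1999 bp upstream of AT5G13181 (score 17.3), a WRKY40-HA peak 1999 bp upstream of DEAR2 (35.2) and a WRKY40-HA peak 1999 bp downstream of the AT3G22540 start (21.4). Peaks thus lay directly on both sides of the limit. A peak beyond the limit in 1 replicate met a peak of the other replicate that was not distal at 15 sites of WRKY18-HA, 14 of WRKY33-HA and 14 of WRKY40-HA.

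The strength of a peak was read from the authors' peak score, as a percentile of its own list with 0 for the best score, because scores of different libraries cannot be compared. The median percentile of distal peaks was 54.5 and 51.4 in the WRKY18-HA lists, 49.9 and 50 in the WRKY33-HA lists, and 55.5 and 51.4 in the WRKY40-HA lists. Distal peaks ranked weaker than other peaks in 4 of 6 lists, all of WRKY18-HA and WRKY40-HA, and level with them in both WRKY33-HA lists, whose scores hold many ties. The mean difference of 2.48 percentile points, with a range over lists of 0 to 6.30, did not pass the test (exact sign-flip permutation test over 6 lists, two-sided, p = 0.125, smallest possible 0.03125).

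Enrichment over WT was read from the authors' ratio of tags, HA over WT, whose scaling between libraries is not stated. Its median was 7.58 and 7.85 for distal peaks of WRKY18-HA against 7.95 and 8.00 for its other peaks. In WRKY33-HA it was 7.27 and 7.50 against 7.15 and 7.30, and in WRKY40-HA 7.67 and 8.26 against 8.11 and 8.38. Distal peaks were thus lower in 4 lists and higher in the 2 WRKY33-HA lists. The mean difference of -0.02 on the log2 scale did not pass the test (exact permutation, p = 0.3125).

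Distal peaks were on average 34.8 bp wider, again without passing the test (exact permutation, p = 0.125). Their median widths ran from 524 to 642.5 bp over the 6 lists and those of other peaks from 471 to 585 bp. Between 6.80% and 11.3% of the distal peaks of a list were among the 10% best-scoring peaks of that list. The best distal peak ranked 6 and 4 in the WRKY18-HA lists, 26.5 (a tie) and 13 in the WRKY33-HA lists, and 1 and 3 in the WRKY40-HA lists, so distal positions reached the top of the lists.

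**Figure D3:**
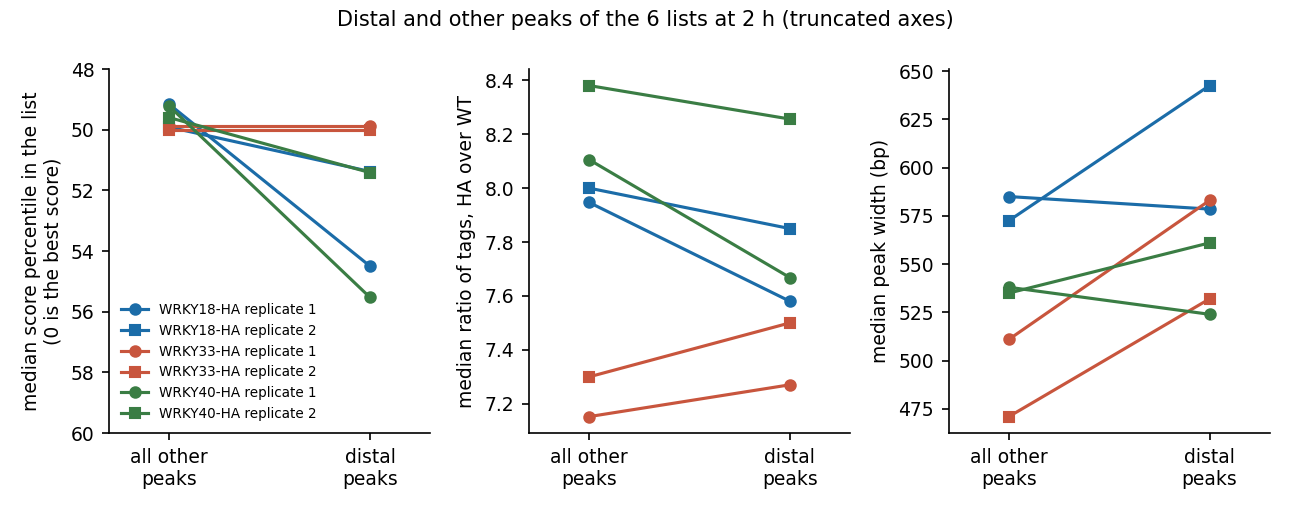
Medians for distal peaks and for all other peaks of the 6 lists at 2 h: score percentile within the list (0 is the best score, axis reversed), ratio of tags in the HA library over WT, and peak width in bp. Lines join the values of 1 list, and the axes do not start at 0; the percentile medians of distal peaks lie between 49.9 and 55.5.

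A distal site was called reproducible in a line when overlapping distal peaks were present in both replicates. This held for 157 sites in WRKY18-HA, 105 in WRKY33-HA and 167 in WRKY40-HA. They were 10.8% (exact 95% interval 9.27 to 12.5) of the reproducible sites of WRKY18-HA and 8.49% (6.99 to 10.2) of those of WRKY33-HA. In WRKY40-HA they were 167 of 1658 sites (interval 8.67% to 11.6%). Distal peaks seen in 1 replicate only formed a further 219, 177 and 232 sites.

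Of the distal peaks of replicate 1, 82.7% overlapped a peak of replicate 2 in WRKY18-HA, 75.5% in WRKY33-HA and 85.0% in WRKY40-HA. Over all peaks of these lists the shares were 82.8%, 75.5% and 85.4%. From replicate 2, whose lists were longer, the shares were 47.7%, 45.1% and 46.8% for distal peaks and 49.3%, 46.9% and 51.2% for all peaks. To 3 digits, each distal share was at or below the share of its list, and the difference was largest in the second WRKY40-HA list. Counted by merged sites, 44.2% of all WRKY18-HA sites, 40.5% of all WRKY33-HA sites and 46.7% of all WRKY40-HA sites were in both replicates.

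Distal peaks with better scores were found again more often. In the longer WRKY40-HA list, 81.1% of the distal peaks were found in replicate 1 when they were among its best scores, 48.9% among its middle scores and 15.9% among its last scores, the list being cut into 3 equal ranges of percentile. In WRKY18-HA these shares were 75.9%, 40.5% and 27.5%, and in WRKY33-HA 73.1%, 36.6% and 23.7%. From replicate 1 the fall was smaller, with 94.8%, 90.5% and 64.3% in WRKY18-HA and 84.6%, 76.7% and 66.7% in WRKY33-HA. In WRKY40-HA the best and middle ranges were nearly level from replicate 1, at 90.7% and 90.5%, with 74.7% in the last. Peaks of all kinds were not split this way, so the pattern is not shown to be particular to distal peaks. The positions repeated closely: the maxima of both replicates were apart by a median of 38 bp at distal WRKY18-HA sites, 36 bp at WRKY33-HA sites and 31 bp at WRKY40-HA sites. At the other reproducible sites the medians were 32, 27 and 30 bp.

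Merged over the lines, the reproducible distal sites made 240 places in the genome, with 229 assigned loci. Here and below, a line counted at a place when a site with overlapping peaks in both replicates, distal or not, met it. Of these places, 75 (31.3%) held a reproducible site of WRKY18-HA and WRKY40-HA but not of WRKY33-HA, and 61 (25.4%) held one of all 3 lines. WRKY33-HA stood alone at 40 (16.7%), WRKY40-HA at 31 and WRKY18-HA at 23. WRKY33-HA shared 7 with WRKY18-HA alone and 3 with WRKY40-HA alone. Places with WRKY18-HA and WRKY40-HA were thus the most numerous. These patterns were not counted over all reproducible sites, so their order is not shown to be particular to distal places.

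Of the distal WRKY18-HA sites, 81.5% overlapped a reproducible WRKY40-HA site (exact 95% interval 74.6 to 87.3) and 38.9% a WRKY33-HA site, against 85.2% and 43.9% of all WRKY18-HA sites. Of the distal WRKY40-HA sites, 79.0% overlapped a WRKY18-HA site and 37.1% a WRKY33-HA site, against 1244 of 1658 and 40.6% of all WRKY40-HA sites. Of the distal WRKY33-HA sites, 61.0% overlapped a WRKY18-HA site and 54.3% a WRKY40-HA site, against 51.9% and 54.6% of all WRKY33-HA sites. Lists of different length make these shares unequal by direction.

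Both other lines were present at 35.0% of distal WRKY18-HA sites (27.6 to 43.0), 53.3% of distal WRKY33-HA sites (43.3 to 63.1) and 34.7% of distal WRKY40-HA sites (27.5 to 42.5). Among all reproducible sites the shares were 40.3% for WRKY18-HA, 47.5% for WRKY33-HA and 35.5% for WRKY40-HA, each within the interval of the distal share. At the 61 places with all 3 lines, the maxima of the 2 h lists spanned a median of 152 bp, and at 24 places no more than 100 bp. This span was not computed for the other reproducible sites with all 3 lines, so it shows nothing particular to distal places. Without any peak of another line in any 2 h list were 16 distal sites of WRKY33-HA (15.2%), 5 of WRKY40-HA (2.99%) and 2 of WRKY18-HA (1.27%). Over all sites the shares were 19.3%, 2.41% and 1.38%, close to those of the distal sites.

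At 0 h, a WRKY18-HA peak was already listed at 98 of the 157 distal WRKY18-HA sites in at least 1 library (62.4%, exact 95% interval 54.3 to 70.0). Over all reproducible WRKY18-HA sites this share was 63.2%. The first 0 h library gave 15.9% and the second 59.9%, and 21 sites (13.4%) had a peak in both. The share therefore rests on the second library, the one that stood apart. By strength at 2 h it was 83.0% among the 53 best-scoring distal sites and 35.8% among the 53 last. With the first 0 h library alone these were 34.0% and 0%. All reproducible WRKY18-HA sites were not split this way, so the pattern is not shown to be particular to distal sites.

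For WRKY33-HA, 0 of 105 distal sites had a 0 h peak, which allows a share of up to 3.45% by the exact interval, against 1.29% of all its sites. For WRKY40-HA it was 1 of 167 (0.599%), the SMAP1 site, against 0.905% of all its sites. The 0 h lists of these lines were short, so a missing peak there does not show that the factor was not bound. In the other direction, all 26 distal peaks of the first WRKY18-HA list at 0 h and 191 of the 221 (86.4%) of the second overlapped a WRKY18-HA peak at 2 h. For WRKY33-HA it was 0 of the 5 distal peaks of the second 0 h list. For WRKY40-HA it was 1 of 9 in the first, 8 of them on organelle chromosomes, and 1 of 3 in the second. The share over all 0 h peaks was not computed.

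At the 21 distal WRKY18-HA sites with peaks at both times in both replicates, the median ratio of tags over WT was 7.87 at 0 h and 13.9 at 2 h in replicate 1. It was 11.4 and 12.8 in replicate 2. The ratio was higher at 2 h at 18 of 21 sites in replicate 1 and at 15 of 21 in replicate 2. Each time had its own WT library, so these ratios also carry any difference between the controls. The same ratios were not computed for the 174 other reproducible WRKY18-HA sites with 0 h peaks in both libraries. The counts therefore show nothing particular to distal sites.

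**Figure D4:**
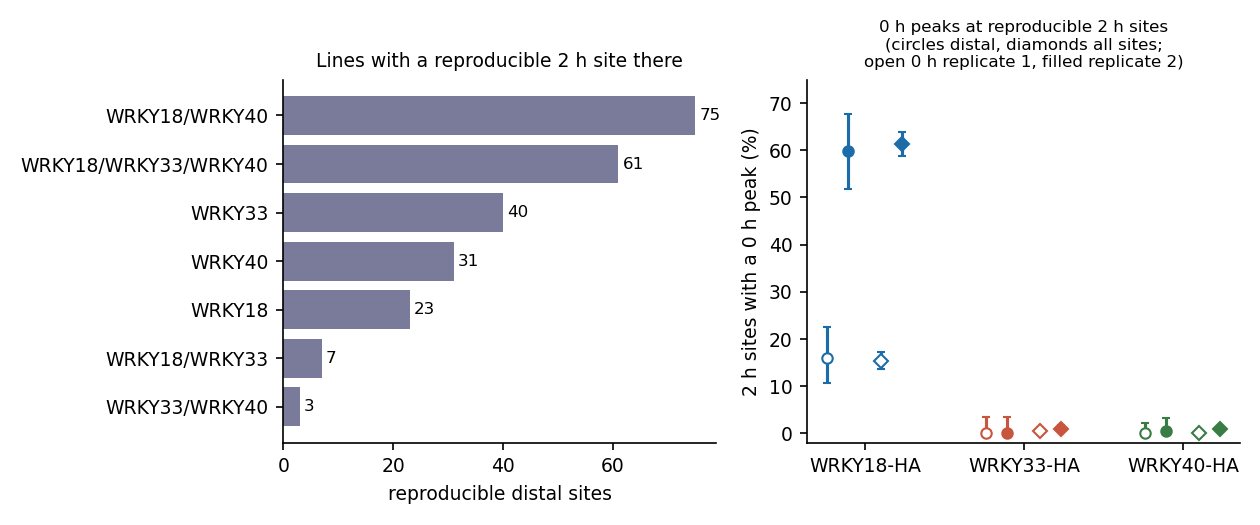
Left, the 240 places with a reproducible distal site, by the lines that held a reproducible 2 h site there, distal or not (75 for WRKY18 with WRKY40, 61 for all 3). Right, percent of reproducible 2 h sites with a peak of the same line in each 0 h library, for distal sites (circles) and all sites (diamonds), with exact 95% intervals; only WRKY18-HA lies above a few percent.

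The distal site with the best mean percentile over the lines that held it lay upstream of WRKY40 itself, at chr1:30378646-30381063 (TAIR10), between WRKY40 and AT1G80831, a gene with no described function. That place rests on WRKY18-HA alone, the one line with distal peaks there in both replicates at 2 h, and within WRKY18-HA the AT1G62301, KCS12 and PFD3 sites described below ranked better. WRKY18-HA peaks there scored 58.3 and 92.6 at 2 h, ranks 58.5 and 18, and 32.4 and 50.3 at 0 h. The first WRKY40-HA list at 2 h had its best peak there, with a score of 195, and 12836 tags against 64 in WT, a deposited ratio of 43.6. WRKY40-HA also had peaks there at 0 h, scores 22.7 and 28.3, which were ranks 3 and 2 of its short lists.

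In the second WRKY40-HA list at 2 h no peak at this place was listed, although that list held a peak 727 bp upstream of the WRKY40 start with a score of 70.4 and a weaker one 2318 bp upstream with 16.8. The peak numbers of that list start at 2, but so do those of the first WRKY40-HA list at 2 h, which held the peak. The numbering therefore does not set apart the list without the peak. WRKY33-HA had 2 weak peaks there in replicate 1, with scores of 15.7 and 16.3, and none in replicate 2. The nearer start changed from list to list with the peak's edges, and of the 7 WRKY18-HA and WRKY40-HA peaks there 5 were assigned to AT1G80831 and 2 to WRKY40, while the maxima of the best peaks at 2 h fell within 20 bp. By the lists, the WRKY40 start was 3801 bp away from the best peak.

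A similar place lay upstream of WRKY18, at chr4:15379745-15380375, where WRKY40-HA had reproducible distal peaks with scores of 10.6 and 19.2, assigned to the diphthine synthase gene AT4G31790. The WRKY18 start was 3141.5 bp away. In all 4 WRKY18-HA lists the best peak of the list spanned this place, with scores of 238 and 272 at 0 h and 262 and 209 at 2 h. Those peaks were 4480 to 5116 bp wide and their midpoints lay 1753 to 1993 bp from the WRKY18 start, so the rule leaves them out.

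The deposited ratio of tags over WT at these WRKY18-HA peaks was 29.3 and 57.9 at 0 h and 46.8 and 45.5 at 2 h. Their maxima lay outside the distal place, and tags on the distal place alone are not given by the lists. WRKY40-HA had no peak overlapping the distal place at 0 h. Since the line carries a tagged copy of WRKY18, any share of tags that came from the inserted copy was not tested. The same holds for WRKY40-HA at WRKY40.

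The site with the best mean rank over all 3 lines lay between PFD3, which encodes a subunit of the chaperone prefoldin, and WRKY48, a pathogen-induced WRKY gene, at chr5:20082765-20086798. Its scores at 2 h were 66.8 and 81.3 in WRKY18-HA, 40.5 and 34.9 in WRKY33-HA, and 62.4 and 107 in WRKY40-HA. All 6 peaks were among the first 101 of their lists, with maxima spread over 984 bp of this wide place. At 0 h WRKY18-HA had peaks with scores of 19.2 and 56.5, and the other lines had none.

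Next in order was a site at chr4:17533503-17534546, upstream of both the receptor-like kinase gene AT4G37250 and MYB73, an R2R3-type MYB transcription factor gene. Its scores were 56.8 and 55.4 in WRKY18-HA, 29.2 and 45.2 in WRKY33-HA, and 63.3 and 62.6 in WRKY40-HA, with ratios of tags over WT from 12.8 to 28.1. All 6 lists ranked it within their best 113 peaks. Only the second WRKY18-HA list had a peak there at 0 h, with a score of 20.5.

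ATL16 (AT5G43420), a RING-H2 protein of a ubiquitin ligase family, had a site 3674 bp upstream in all lines. It scored 33.6 and 38.8 in WRKY18-HA, 25.9 and 31.7 in WRKY33-HA, and 50.8 and 52.4 in WRKY40-HA. A second ATL16 site, 2264 bp upstream, was held by WRKY18-HA and WRKY40-HA. The SMAP1 site, between the auxin-related SMAP1 and the ammonium transporter gene AMT1;1, was present in all lines and distal by the rule in both replicates in WRKY40-HA alone, while its midpoints in the 2 h lists lay 1741 to 2063 bp upstream of SMAP1.

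Several of the best sites were much stronger in WRKY18-HA and WRKY40-HA than in WRKY33-HA by rank. KCS12, an enzyme gene of fatty acid elongation, had a site 3617 bp upstream that ranked 6 and 76 in WRKY18-HA and 14.5 and 92.5 in WRKY40-HA, but 281 and 1873.5 in WRKY33-HA. ABR1, an ethylene-response-type repressor gene next to the cellulose synthase gene CESA6, had one 3736 bp upstream, with ranks of 57 and 41, 64 and 20, and 577.5 and 855.5 in the same order. The site between PHB3, a prohibitin gene, and the amino acid transporter gene LHT1 ranked 123 and 61, 150.5 and 69, and 936 and 1583.5, and the maxima lay up to 630 bp apart. In all 3 cases both WRKY33-HA ranks lay behind all 4 ranks of the other lines, by rank and by percentile of the list, in a set of sites picked by their scores.

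AT1G62301, a gene with no described function, was assigned to a wide site at chr1:23021517-23025958. Its scores were 98.5 and 132 in WRKY18-HA, 72.9 and 182 in WRKY40-HA, and 16.3 and 42.3 in WRKY33-HA. It was rank 7 and 4 in WRKY18-HA and rank 27 and 3 in WRKY40-HA. The maxima spread over 1419 bp, the first WRKY33-HA peak (16.3) being the one apart. The midpoint of the place lay 4458.25 bp upstream of the WRKY6 start.

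RHA1A, a RING-H2 gene, had a site 2400 bp from its start in WRKY18-HA (scores 63.0 and 39.4) and WRKY40-HA (78.1 and 45.7), and in WRKY33-HA in replicate 1 only (36.2). NAC061, a NAC transcription factor gene, showed the same arrangement at 3755 bp upstream, with 25.6 and 49.9, 37.8 and 56.1, and a single 16.3. PP2-B14, an F-box gene, had peaks in all 6 lists, at ranks 70 and 223 in WRKY18-HA, 141 and 351.5 in WRKY40-HA, and 760.5 and 1133.5 in WRKY33-HA.

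At ACS8 and MYB15 the order was turned. MYB15, a MYB factor gene of defence lignification, had a distal place where peaks ranked 164 and 78.5 in WRKY33-HA, 533 and 464.5 in WRKY18-HA, and 921.5 and 572.5 in WRKY40-HA. The WRKY33-HA peaks lay 4036 and 4076 bp upstream and those of the other lines 3013 to 3552 bp, with maxima up to 1099 bp apart, so these ranks belong to different peaks of one merged place. ACS8, an enzyme gene of ethylene synthesis, had a site 3634 bp upstream with ranks of 113 and 103 in WRKY33-HA, 669.5 and 580 in WRKY18-HA, and 956 and 657.5 in WRKY40-HA, and maxima within 62 bp. Both WRKY33-HA ranks were ahead of all 4 others at ACS8, also by percentile of the list.

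UGT72E1, a glucosyltransferase gene of monolignol metabolism, had a reproducible site in WRKY33-HA alone, 2341 bp upstream, with scores of 31.4 and 24.8. A single WRKY18-HA peak there scored 11.3, and WRKY40-HA had none. The place between SWEET3 (AT5G53190), of the SWEET sugar transporter family, and TRY, a MYB-type inhibitor of trichome formation, held 2 separate sites. The one 2412 bp upstream of SWEET3 was reproducible in WRKY18-HA, with scores of 31.0 and 46.9, and the one 3218 bp upstream of TRY was found with WRKY33-HA alone, with 14.4 and 26.3.

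The other sites found with WRKY33-HA alone and best placed in its lists belonged to CYP51G1, a sterol demethylase gene (scores 18.7 and 24.0), AT1G35830, a gene of the VQ-motif family, some of whose members bind WRKY proteins (14.6 and 32.5), MEE62, a receptor-like kinase gene (14.4 and 30.0), and CMPG2, a U-box gene (15.7 and 17.8). None of these sites had a peak of WRKY18-HA or WRKY40-HA in any list. Their ranks in the WRKY33-HA lists ran from 127 to 838.

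Sites with WRKY18-HA peaks at 0 h in both libraries included that of the hexose transporter gene STP1, 3511 bp upstream. It scored 11.2 and 47.2 at 0 h and 47.2 and 48.1 at 2 h. At AT2G46620 the scores were 13.5 and 45.1 at 0 h and 48.5 and 76.3 at 2 h, and at KCS12 46.2 and 50.4 at 0 h and 100.0 and 59.5 at 2 h. At FMO GS-OX4, an enzyme gene of glucosinolate side-chain oxidation, they were 13.2 and 41.7 at 0 h and 22.7 and 28.2 at 2 h, and at AT2G44070 15.0 and 53.7 against 16.2 and 35.0. Scores of different libraries are set side by side here and not compared.

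**Figure D5:**
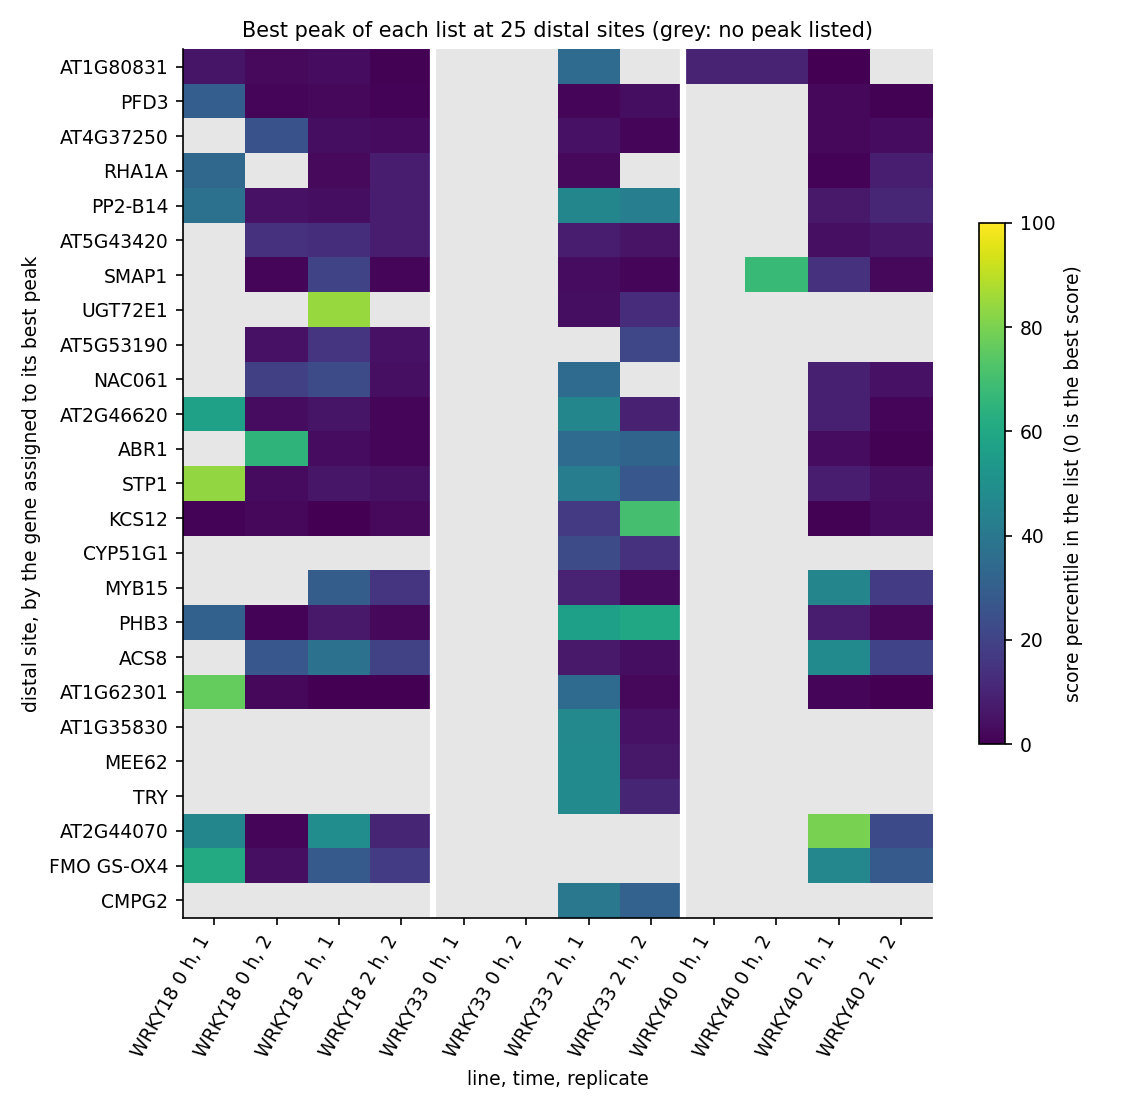
Score percentile of the best peak of each list at 25 named distal sites (0 is the best score of the list, grey where no peak is listed), by line, time and replicate, with the sites ordered by mean percentile at 2 h. The lower WRKY33-HA ranks at KCS12, ABR1 and PHB3 and the sites with peaks in WRKY33-HA alone (CYP51G1, AT1G35830, MEE62, TRY, CMPG2) can be seen.

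By the authors' descriptions, 30 of the 229 loci assigned to reproducible distal sites (13.1%) were transcription factor genes other than WRKY genes, against 140 of 2004 loci of the remaining reproducible sites (6.99%). WRKY genes were 7 (3.06%) against 29 (1.45%), and kinase or receptor genes 15 (6.55%) against 246 (12.3%). Genes with no described function were 34 (14.8%) against 345 (17.2%), pseudogenes and transposon genes 4 against 41, and non-coding RNA genes 2 against 39. The remaining 137 (59.8%) and 1164 (58.1%) fell in none of these classes. These are counts without a test, and the length of intergenic space beside each class was not measured.

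The neighbour on the far side of the site was also looked up, by gene order in RefSeq (TAIR10.1), in which 225 of the 229 loci were found. A WRKY gene was the assigned or the next gene at 12 of 240 distal places (5.00%, exact 95% interval 2.61 to 8.57) and at 37 of 1989 nearer places outside exons and introns (1.86%, 1.31 to 2.56). The place between AT1G80831 and WRKY40 and the AT1G62301 place upstream of WRKY6 are not among the 12, since RefSeq order named no next gene at either. This count was chosen after its values were seen and has no test. By the starts in the lists, 14 distal places lay within 10000 bp of a WRKY start, and these belonged to 12 genes: WRKY6, WRKY15, WRKY18, WRKY28, WRKY29, WRKY38, WRKY40, WRKY47, WRKY48, WRKY58, WRKY62 and WRKY65. Nearer places were not counted this way, so no excess is shown. Starts could be traced only for genes with peaks at different positions in the lists, which favours genes with many peaks.

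The WRKY15 site, 2854 bp upstream, had the best mean percentile of those assigned to a WRKY gene in the merged set. It scored 65.0 and 40.7 in WRKY18-HA, 23.9 and 14.6 in WRKY33-HA, and 64.1 and 51.7 in WRKY40-HA at 2 h, and 24.2 and 28.1 in WRKY18-HA at 0 h. WRKY47 had a site with peaks 3359 and 4048 bp upstream in WRKY18-HA (24.5 and 43.5), and 3504 bp upstream in the second WRKY40-HA list (48.5). The first WRKY40-HA list had no peak maximum there but one in the same merged place that was assigned to the neighbouring gene (16.0). WRKY29, a WRKY gene of flg22 signalling, had WRKY33-HA peaks 2608 and 2598 bp upstream, with 16.6 and 17.6. The second WRKY18-HA list had one 2255 bp upstream (18.3), with its maximum up to 782 bp from theirs.

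Some distal sites came with a nearer one. The assigned gene also had a reproducible site within 2000 bp of its start in the same line for 36 of 157 distal sites of WRKY18-HA (22.9%), 18 of 105 of WRKY33-HA (17.1%) and 41 of 167 of WRKY40-HA (24.6%). Of all loci on chromosomes 1 to 5, 2.95%, 2.62% and 3.36% had such a site. These are loci with or without a peak nearby, so the difference shows nothing particular to distal sites. The median gap between the distal and the nearer site was 1361.5, 1192.5 and 894 bp. The smallest gaps were 13, 43 and 11 bp, so some nearer sites lay directly beside the distal one. Whether such a pair is 1 enriched region listed as separate peaks was not tested.

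Distal sites also came in pairs at 11 of the 229 loci. Besides ATL16 these were WRKY62, the sucrose transporter gene SUC1, the nitrate transporter gene NRT1:2, RAV1, LRR XI-23, AT1G23100, AT1G53610, AT1G61660, AT5G45100 and AT5G56960. SUC1 had sites 4202 and 9490 bp upstream, and the second held the farthest upstream peak of all, at 9547 bp in a WRKY40-HA list. AT1G61660, which encodes the bHLH factor bHLH112, had sites 3043 and 5602 bp upstream, both held by all 3 lines. Other pairs lay closer, as at AT1G53610, with sites at chr1:20006300-20006875 and chr1:20006880-20007488. Whether such a pair is a single enriched region listed as separate peaks was not tested. Pairs were not counted among the other reproducible sites, so nothing particular to distal sites is shown.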

How the data were processed

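Each of the 12 HA libraries has 1 list of peaks from the authors; no list is used for the 4 WT libraries. The submitters' processing notes name HOMER, Bowtie 0.12.7, cutadapt 1.2.1 and FastQC 0.11.2, and TAIR10 as the build, with no settings. The deposited values per peak are a peak score, counts of tags in the HA and the WT library, and a ratio of tags, HA over WT, with a scaling that is not stated, per the file headers; the −log10 q-value per peak, also made by the authors, was not used in a result; annotation and distance to the start were also assigned by the authors. Per the labels' protocols each library gave between 7 and 20 M reads, 100 bp long and single-end, and the depth of each library is unknown. Some peak numbers are absent from the lists, so a missing peak is not evidence of no binding. DNA went through 2 rounds of linear amplification, per the labels.

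Here, peaks were kept unfiltered and merged by at least 1 bp of overlap (Python 3.11.15, numpy 2.4.6, pandas 2.3.3, scipy 1.17.1, matplotlib 3.10.9). Distal sites were called reproducible when both replicates held a distal peak, and other sites, also those of other lines at a distal place, when both replicates held a peak. Tests were exact permutation tests over libraries at a threshold of 0.05, and intervals were exact 95% (Clopper-Pearson) intervals, which cover counting error only. The functions were tested on simulated lists, and 8 of 8 checks gave the known answer. Named sites were the 10 best by mean score percentile over the lines, the 5 best per line, the 5 best with 1 line only, up to 10 with 0 h peaks in both libraries, and those next to the limit; sites named beyond these were chosen after their values were seen. The rule, the lists and the named sites were chosen with earlier results of these data known. No genome was used, so no sequences or W-boxes are given here.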

Additional observations from a re-analysis of the deposited data

How the results depend on the processing

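Of the 113 comparisons with an alternative setting, 80 kept their direction and their side of the threshold or stayed within the interval. The rise in number from 0 h to 2 h kept its direction at every distance limit, on nuclear chromosomes, with a pseudocount of 0.5 and with the replicate block (4.53 in log2, exact permutation p = 0.03125); the block changed no other call. With 1 replicate left out it was 4.22 to 4.85, past no threshold because 0.25 is the smallest p possible, and 5.04 without the second WRKY18-HA library at 0 h. The rank difference turned to -0.71 percentile points at a limit of 3000 bp and -0.81 at 5000 bp, and the tag ratio difference to 0.015 in log2 at 3000 bp, none past the threshold. Among the better-scoring 50% of each list the tag ratio difference was -0.049 and the width difference 55.8 bp, each at the smallest possible exact permutation p of 0.03125. The cause was not tested.

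Shares found in the other replicate, 60.5% (WRKY18-HA), 56.2% (WRKY33-HA) and 60.6% (WRKY40-HA), fell to 53.2%, 49.5% and 52.5% with 50% reciprocal overlap and to 46.9%, 45.8% and 49.2% with centres within 150 bp. They were 67.3% (WRKY18-HA) and 66.7% (WRKY40-HA) beyond 5000 bp, and 52.4% (WRKY40-HA) in the better-scoring 50%. Shares bound by both other lines fell to 25.2%, 36.8% and 24.8% and to 22.0%, 29.5% and 18.4% under the same overlap rules. They were 44.8% (WRKY18-HA) and 63.3% (WRKY33-HA) at 3000 bp, and 43.8% and 66.7% at 5000 bp. The share with a 0 h peak in WRKY18-HA was 52.8% with centres within 150 bp, 12.4% to 54.8% with 1 replicate left out, and 15.9% without the second 0 h library, a larger move than under either overlap rule. In WRKY40-HA it was 0 at limits of 3000 and 5000 bp and under both stricter overlap rules. The share found in the other replicate has no value with 1 replicate left out. The distance from the maximum, chosen after seeing the data like the run without the second WRKY18-HA library, gave 1478 peaks instead of 1476. The planned count of W-boxes was not run.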

Other observations

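Some further genes of defence metabolism and hormone signalling lay beside distal sites; these were picked after their values were seen. Around the camalexin enzyme genes CYP71A12 and CYP71A13, WRKY33-HA had a reproducible site 2803 bp upstream of CYP71A12, with scores of 17.0 and 29.7 and ranks of 511 and 181. Another, with scores of 17.2 and 29.2, lay between AT2G30780 and CYP71A13. WRKY18-HA and WRKY40-HA had a peak at each of these places in 1 replicate only, with maxima up to 478 bp from those of WRKY33-HA. CYP79B2, which makes the indole intermediate upstream of both, had a site 2321 bp upstream in all 6 lists, with ranks of 726.5 and 927.5 in WRKY18-HA, 304 and 200 in WRKY33-HA, and 650.5 and 624.5 in WRKY40-HA. The WRKY33-HA ranks were ahead of the other 4.

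EIN2, the central membrane protein of ethylene signalling, had a site 2182 bp upstream with scores of 13.5 and 64.1 in WRKY18-HA and 24.5 and 58.2 in WRKY40-HA, and none in WRKY33-HA. The second WRKY18-HA library had a peak there at 0 h as well, with a score of 52.4 and rank 37. ERF15, an ethylene-response factor gene, had one 2061 bp upstream in the same lines, with 26.1 and 24.7 and with 28.8 and 33.4. PUB23, a ubiquitin ligase gene that limits responses to flg22, had one 2283 bp upstream that was reproducible in WRKY33-HA alone, with 17.4 and 25.1. Single peaks of WRKY18-HA and WRKY40-HA there scored 13.2 and 16.0.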
